A study of Rattus norvegicus with 12 samples.

Results

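Transcripts of 6 pancreatic digestive enzyme genes, Ctrb1, Ctrl, Ctrc, Cela1, Cpa1 and Cel, were read in the lungs of rats. The genes were chosen by name because Ctrb1 had been seen to be higher in the CS + LPS + NaHS group than in the CS + LPS group, and the question was whether the other enzymes moved with it. The values of CS + LPS + NaHS against CS + LPS chose Ctrb1, so they are given as a description and without a test. Each gene had 1 probe, printed as 2 spots, and the 6 genes were among 14925 with a symbol on the array. Of 30367 probes for rat transcripts, 21239 were detected, which means that at least 1 group had the probe well above background on its 3 arrays, and all 6 genes passed. Ctrb1, Ctrl, Ctrc, Cela1 and Cel were well above background on 12 of 12 arrays. Cpa1 was well above background on 10 arrays, among them 1 of the 3 control arrays. A member that passes in this way may do so through the group where it is high. No spot of the 6 genes was saturated.

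The lungs came from 12 male Sprague-Dawley rats of 8 to 12 weeks, 3 in each of 4 groups, and RNA of the left upper lobe of each rat was hybridized in a single colour to an Agilent rat array. The CS + LPS group inhaled cigarette smoke (CS) over about a month and received bacterial lipopolysaccharide (LPS) into the trachea, which is a model of chronic obstructive pulmonary disease. The CS + LPS + NaHS group had the same exposure and was injected with NaHS, a salt that releases hydrogen sulfide (H2S), and the CS + LPS + PPG group was injected with PPG (propargylglycine), an inhibitor of the H2S-forming enzyme CTH. The control group breathed air and received saline, and the lungs were taken the day after the last exposure. PPG acts on CTH in the whole animal and not in the lung alone. Nothing in the labels says how the rats were housed or whether they shared litters, so the p-values measure the spread between these rats.

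Pancreatic acinar cells make digestive enzymes as inactive precursors and store them in granules for release into the gut. Chymotrypsins cut proteins after large hydrophobic residues, elastases cut after small ones, carboxypeptidases take residues off the end of the chain, and Cel encodes a lipase that works with bile salts. Cel is therefore no protease, although it is secreted with the proteases. In acinar cells these genes share an activator complex that holds PTF1A and RBPJL, which binds an E box and a TC box placed close together upstream of the gene.

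The upstream sequences of the members were searched for such a pair of boxes, a feature that does not use the array values. The genes were chosen as pancreatic enzymes, for which such boxes are known, so the feature is not independent of the choice. The window was the 250 bases before each gene start in RefSeq on the GRCr8 build, and the motifs were CACCTG (an E box) and TTCCC (the core of the TC box), on both strands. These letters and the limit of 20 bases between the motifs were set after the sequences had been looked at. The genes whose windows held a pair are shown here, 5′ to 3′ on the strand of the gene, with every match in capitals. Ctrb1 lies at chr19:56566979-56567228, Cela1 at chr7:133665062-133665311, Ctrl at chr19:50738980-50739229 and Cel at chr3:32289020-32289269, all on the minus strand.
Ctrb1: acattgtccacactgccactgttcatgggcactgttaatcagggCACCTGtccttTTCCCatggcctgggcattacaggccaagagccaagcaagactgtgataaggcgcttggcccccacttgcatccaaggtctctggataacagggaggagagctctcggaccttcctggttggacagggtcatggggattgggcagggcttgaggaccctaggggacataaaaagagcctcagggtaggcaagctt
Cela1: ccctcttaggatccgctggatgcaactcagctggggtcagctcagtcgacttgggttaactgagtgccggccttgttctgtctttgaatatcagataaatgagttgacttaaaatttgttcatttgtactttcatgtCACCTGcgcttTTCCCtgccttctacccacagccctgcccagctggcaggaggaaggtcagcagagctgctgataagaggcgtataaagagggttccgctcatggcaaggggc
Ctrl: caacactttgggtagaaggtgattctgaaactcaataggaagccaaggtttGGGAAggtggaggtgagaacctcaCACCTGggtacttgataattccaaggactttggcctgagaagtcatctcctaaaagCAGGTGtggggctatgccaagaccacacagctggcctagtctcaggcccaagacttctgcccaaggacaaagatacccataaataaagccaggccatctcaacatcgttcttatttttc
Cel: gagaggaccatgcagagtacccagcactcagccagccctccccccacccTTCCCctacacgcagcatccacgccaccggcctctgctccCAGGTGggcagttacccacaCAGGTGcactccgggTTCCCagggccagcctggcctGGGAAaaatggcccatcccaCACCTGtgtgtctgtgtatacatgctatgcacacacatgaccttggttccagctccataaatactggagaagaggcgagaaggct

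In Ctrb1 and Cela1 the E box was followed by the TC box core after 5 bases, in the same order and orientation. The pair of Ctrb1 began 206 bases and that of Cela1 113 bases before the gene start. Ctrl held a pair with 19 bases between the motifs and Cel held 2 pairs, with 9 and 15 bases between them, and in these the motifs lay on opposite strands. Ctrc held neither motif in its window, and Cpa1 held TTCCC at 2 places and no CACCTG. Of 33469 promoter windows of the same length, 15.9% held CACCTG, 56.1% held TTCCC and 2.13% held both within 20 bases. Since the motifs and the limit were set on the sequences of these genes, nothing is read from the members beside these shares. A match describes letters and does not show binding.

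**Figure D1:**
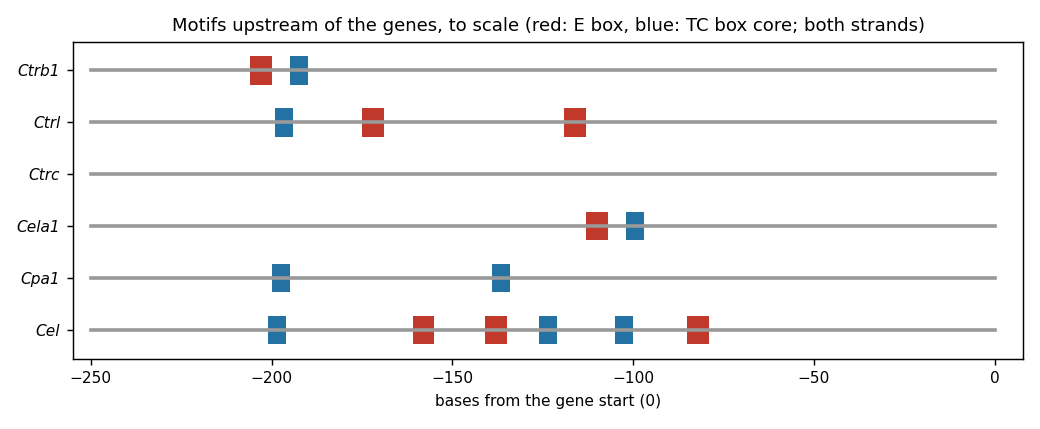
Motif positions in the window of 250 bases before the start of each gene, with bases from the gene start on the horizontal axis and 1 line for each gene. Red blocks are CACCTG and blue blocks are TTCCC on either strand, drawn to scale; the blocks stand 5 bases apart in Ctrb1 and in Cela1, and the Ctrc line is empty.

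The arrays were not alike in quality. The 75th percentile of the processed signal was 857 on control replicate 3 and 1430 to 2230 on the other arrays, and the correlation of control replicate 3 with the others was 0.936 to 0.957. Control replicate 3 lay on slide 2 with the CS + LPS group, and all other arrays lay on slide 1, so CS + LPS cannot be told apart from slide in comparisons with the NaHS and PPG groups. The lung markers Sftpc (a surfactant protein) and Scgb1a1 (the secretory protein of club cells) were well above background on every array. Markers of heart and fat varied between lungs. Myh6, a myosin of heart muscle, had a log2 level of 14.77 on control replicate 3 and of 3.42 and 4.09 on the other control arrays, and Adipoq, the hormone of fat cells, had 11.60 against 3.68 and 4.32. The PPG arrays lay at 12.75 to 13.56 for Myh6 and at 7.91 to 10.64 for Adipoq. The CS + LPS arrays had 9.39 to 13.22 and 3.13 to 7.12, and the NaHS arrays 4.23 to 13.31 and 3.08 to 5.62. In Adipoq the PPG arrays therefore lay above all CS + LPS and NaHS arrays, and the part of fat and heart in the PPG results was not tested. Differences from control that rest on control replicate 3 are given with and without it.

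Ctrb1, which encodes the chymotrypsinogen B precursor, had log2 levels of 9.39, 9.24 and 10.37 in control and 8.77, 8.67 and 8.51 in CS + LPS. With NaHS the levels were 11.32, 11.28 and 10.51, and with PPG they were 9.0, 10.44 and 10.65. The 3 NaHS arrays lay above all control arrays and the 3 CS + LPS arrays lay below them, while the PPG arrays were spread over the range of control and beyond it. A level is the log2 of the processed signal after the arrays were scaled to a common 75th percentile, and levels of different probes are not comparable.

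Compared with the CS + LPS group, Ctrb1 was higher by 2.39 on the log2 scale with NaHS (SE 0.43), which is 5.24-fold. This is the difference for which the gene was chosen. In the same comparison 1.71% of all detected probes were DE, which means a fold change of at least 2 with an unadjusted p under 0.05 in limma; nothing is read from this share, since the gene was chosen on this difference. When each array was left out in turn the difference ranged from 2.25 to 2.65. With slide as a block it was 3.44 (SE 0.69), a value that rests on control replicate 3 as the only array that ties CS + LPS to control on slide 2. With that block 19.9% of all probes were DE in this comparison.

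The other comparisons of Ctrb1 share arrays with that one, apart from PPG against control, and are given without a p. Compared with control, Ctrb1 differed by -1.02 (SE 0.43) in CS + LPS and by 1.37 (SE 0.43) with NaHS. Without control replicate 3 the CS + LPS difference was -0.67, and on slide 2 alone, against control replicate 3, it was -1.72. On slide 1 alone, against the 2 control arrays there, the NaHS difference was 1.72. PPG differed from CS + LPS by 1.38 (SE 0.43) and NaHS differed from PPG by 1.01 (SE 0.43), with the NaHS and PPG arrays overlapping. Compared with control, PPG differed by 0.37 (SE 0.43, 95% interval -0.58 to 1.31), which did not pass the test (adjusted p = 0.589, limma). It was 0.88 (SE 0.34) without PPG replicate 1, the lowest PPG array, and 0.06 without PPG replicate 3. The interval reaches past a fold change of 2, so these data do not show that PPG and control were alike.

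**Figure D2:**
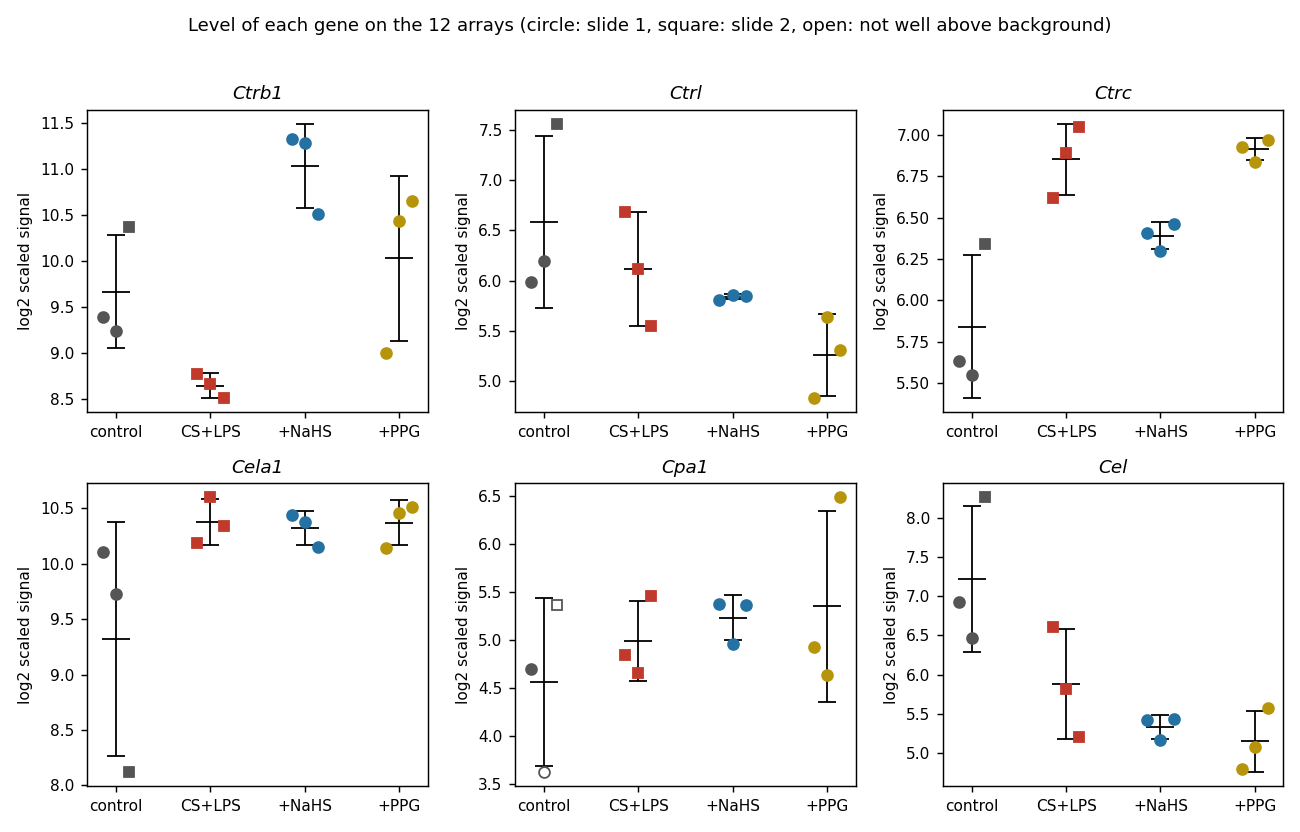
Log2 level of each of the 6 genes on the 12 arrays (vertical axis, log2 of the scaled processed signal) by group (horizontal axis), with circles for slide 1, squares for slide 2, open symbols where the probe was not well above background, and bars for the mean and SD of 3 arrays. In Ctrb1 the 3 NaHS arrays sit at 10.51 to 11.32 and the CS + LPS arrays at 8.51 to 8.77, while in Ctrl, Cela1 and Cel the array of control replicate 3 stands at 7.56, 8.12 and 8.26, away from the other control arrays.

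Ctrl encodes a chymotrypsin-like protease and sits on the same chromosome as Ctrb1. Its levels were 5.99, 6.19 and 7.56 in control, 6.68, 6.12 and 5.55 in CS + LPS, 5.81, 5.86 and 5.85 with NaHS, and 4.83, 5.64 and 5.31 with PPG. Control replicate 3 was the highest array, the NaHS arrays lay close together, and the NaHS and PPG arrays lay below all control arrays. Compared with control, Ctrl with PPG was lower by a difference of -1.32 (SE 0.40), which was DE with an adjusted p of 0.0742 in limma. Without control replicate 3 the difference was -0.83 and no longer DE. With NaHS, where Ctrb1 was highest, the difference from CS + LPS was -0.28 (SE 0.40), and with slide as a block, a value that rests on control replicate 3, it was 1.20 (SE 0.49).

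Ctrc encodes chymotrypsin C, which also activates and degrades other pancreatic proteases. Its levels were 5.63, 5.55 and 6.34 in control, 6.62, 6.89 and 7.05 in CS + LPS, 6.41, 6.30 and 6.46 with NaHS, and 6.93, 6.84 and 6.97 with PPG. The CS + LPS and PPG arrays lay above all control arrays, and the NaHS arrays lay between, overlapping with control. Compared with control, Ctrc rose by 1.01 (SE 0.20, adjusted p = 0.0369, limma) in CS + LPS and by 1.08 (SE 0.20, adjusted p = 0.0255, limma) with PPG. With NaHS the difference from control was 0.55 (SE 0.20, adjusted p = 0.219, limma), and the difference between NaHS and PPG was -0.52 (SE 0.20, adjusted p = 0.566, limma). The differences for CS + LPS and PPG were 0.23 and 0.38 with normexp background correction, and 0.87 to 1.26 and 0.93 to 1.32 when each array was left out. With slide as a block the CS + LPS difference was 0.52 (SE 0.17) and not DE.

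Cela1 encodes an elastase that is also found outside the pancreas. Its levels were 10.11, 9.73 and 8.12 in control, 10.19, 10.60 and 10.34 in CS + LPS, 10.44, 10.38 and 10.15 with NaHS, and 10.14, 10.46 and 10.51 with PPG. Every exposed array lay above the 3 control arrays, the lowest of them at 10.14 beside 10.11 on control replicate 1. The differences from control were 1.06, 1.00 and 1.05 in CS + LPS, with NaHS and with PPG (SE 0.40 each). They were DE, with adjusted p of 0.146, 0.256 and 0.119 in limma. Without control replicate 3, the lowest array, they were 0.45, 0.40 and 0.45 and not DE. On slide 2 alone, against control replicate 3, the CS + LPS difference was 2.26.

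Cpa1 encodes carboxypeptidase A1. Its levels were 4.70, 3.62 and 5.36 in control, 4.84, 4.66 and 5.46 in CS + LPS, 5.38, 4.96 and 5.36 with NaHS, and 4.93, 4.63 and 6.49 with PPG. The groups overlapped, and the highest array was PPG replicate 3. Differences from control were 0.42, 0.67 and 0.79 (SE 0.51 each) for CS + LPS, NaHS and PPG, and none was DE. Without control replicate 3 the PPG difference was 1.19 and DE. With all control arrays kept and PPG replicate 3 left out, the PPG difference was 0.22. Since 2 control arrays were not well above background, the control level is not measured on all its arrays.

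Cel, the bile salt-dependent lipase, had levels of 6.92, 6.47 and 8.26 in control, 6.61, 5.81 and 5.21 in CS + LPS, 5.42, 5.16 and 5.43 with NaHS, and 4.80, 5.07 and 5.57 with PPG. The NaHS and PPG arrays lay below all control arrays and 1 CS + LPS array lay within the range of control. The differences from control were -1.34 in CS + LPS, -1.88 with NaHS and -2.07 with PPG (SE 0.45 each). The symbol of this probe came from the authors' lists of DE probes, so Cel could be read only because it was DE in these data. The PPG difference had also been seen before these genes were listed. The differences of Cel are therefore a description, without a test. Without control replicate 3 they were -0.82, -1.36 and -1.55, and the CS + LPS difference was then under a fold change of 2. With slide as a block the CS + LPS difference was -2.39. On control replicate 3 Cel and Ctrl had their highest levels, on the array where Myh6, Adipoq and the liver protein Alb (7.79 against 2.33 to 5.32 on the other arrays) were highest too. Other markers of heart, fat and liver were mixed. Myl7, Thrsp, Lep and Apoa1 were highest there as well. Actc1 (14.13, highest 14.20), Cfd (12.63, highest 13.26) and Ttr (5.92, highest 7.03) were not, and Nppa and Fgb were well above background on no array. Among lung genes, Sftpc (19.39) and Scgb1a1 (18.53) were also highest there, and Ager (14.17) and Napsa (15.55) were lowest. Among pancreatic genes, Ins1 (8.75) and Pdia2 (8.29) were highest there and Pla2g1b (13.36) was lowest. High levels on this array were thus not limited to heart, fat and liver genes. On PPG replicate 1, the array with the lowest levels of both Cel (4.80) and Ctrl (4.83), Adipoq was at 10.64, Myh6 at 13.46 and Alb at 5.32. The part of these tissues in the levels was not tested.

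Counts of the 5 genes other than Ctrb1 give the comparisons side by side. In CS + LPS against control 3 of 5 were DE, where 4.59% of all detected probes were. Ctrc and Cela1 were higher and Cel lower, beside 1.65% of probes higher and 2.93% lower. In NaHS against control 2 of 5 were DE, where 2.67% of probes were, with Cela1 higher (1.30% of probes) and Cel lower (1.37%). In PPG against control 4 of 5 were DE, where 4.38% of probes were, with Ctrc and Cela1 higher (2.32% of probes) and Ctrl and Cel lower (2.06%). All 3 counts include Cel, which could be read only because it was DE in these data, and its PPG difference was known beforehand. Without Cel the counts were 2 of 4 in CS + LPS, 1 of 4 with NaHS and 3 of 4 with PPG. An adjusted p under 0.05 in limma was reached by 1 of the 4 in CS + LPS (2.04% of probes) and by 1 with PPG (4.61% of probes), which was Ctrc in both. With NaHS it was reached by 0 (0.0989% of probes). There 2 of the 4 had an unadjusted p under 0.05 in limma and 0 in the unpaired test. The share of all probes at that limit is not given here, so nothing is read from these 2. The groups did not overlap for 2, 2 and 3 of the 4 genes in CS + LPS, NaHS and PPG against control. Over all detected probes they did not for 25.2%, 24.8% and 33.1%. These 3 comparisons share the control arrays. Without control replicate 3, Ctrc alone of the 4 was DE in CS + LPS, none was with NaHS, and Ctrc and Cpa1 were with PPG. There 2.90%, 1.95% and 3.12% of probes were DE. Cpa1 passed detection only through the exposed groups, so nothing is read from its call. None of the 4 genes was DE in limma in NaHS or PPG against CS + LPS or in NaHS against PPG, where 1.71%, 2.06% and 0.518% of all probes were. At an unadjusted p under 0.05 the limma counts there were 1, 0 and 1, and so were those of the unpaired test used by the study. Nothing is read from these counts, since the share of all probes at that limit is not given here. With slide as a block, Ctrl (1.20) and Cela1 (-1.86) passed the fold and p limits in NaHS against CS + LPS, and Cela1 (-1.81) did so in PPG against CS + LPS. In these fits 19.9% and 19.4% of all probes were DE, and CS + LPS was tied to the other groups through control replicate 3 alone.

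**Figure D3:**
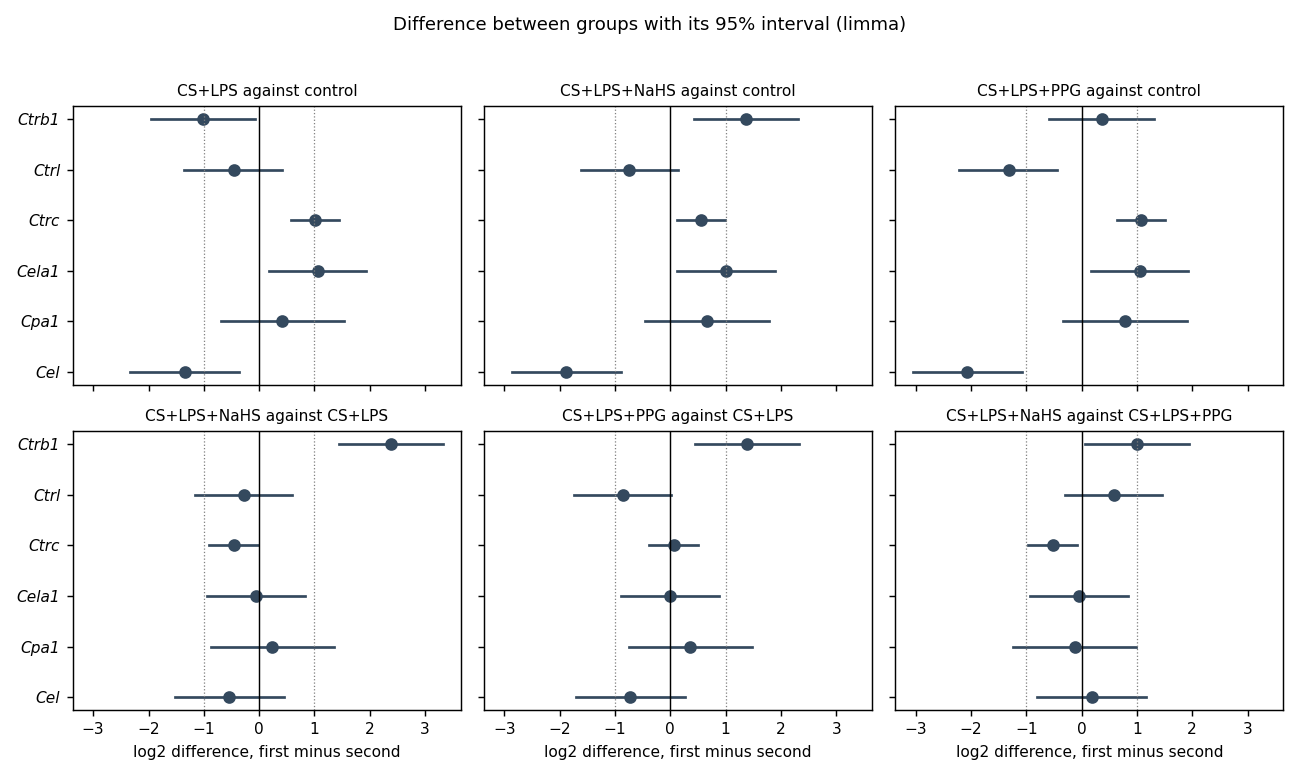
Log2 difference between groups (horizontal axis, first group minus second) of the 6 genes (vertical axis) in 6 comparisons, with points for the limma estimate over 3 arrays a group, lines for the 95% interval and dotted lines at a fold change of 2. In NaHS against CS + LPS Ctrb1 stands at 2.39 and the other 5 lie between -0.54 and 0.24, and against control Cel lies between -2.07 and -1.34. The interval of Ctrb1 in NaHS against CS + LPS and those of Cel do not allow for the choice on these data. They are no test.

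Whether Ctrb1 moved with the others was also read over arrays. Sorted by Ctrb1, the arrays fell into 2 sets of 6, with a gap of 0.98 between 9.39 and 10.37 and ranges of 0.89 and 0.96 within the sets. The criterion, a gap wider than either range, was set after the values were seen and was met narrowly. No correlation of Ctrb1 with another member over all arrays is therefore given. Within the sets 10 correlations were computed, none of which passed after adjustment. The sets were cut on Ctrb1 itself and mix arrays of different groups, so nothing is read from them.

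With the group means removed, and arrays exchanged only inside their groups in an exact permutation test of 1296 orders, Ctrl had r = 0.68 (exact p = 0.034, adjusted 0.085 over 5 genes) and rho = 0.71 (exact p = 0.0448, adjusted 0.168). Cel had r = 0.62 (exact p = 0.0177, adjusted 0.085) and rho = 0.62 (exact p = 0.0671, adjusted 0.168). Cpa1, Ctrc and Cela1 had r of 0.47, 0.34 and -0.29, with exact p of 0.332, 0.377 and 0.559. With group means removed, the 2 arrays farthest out in Ctrb1 were control replicate 3 and PPG replicate 1. Without them r was 0.15 for Ctrl, 0.25 for Cel, 0.08 for Cpa1, -0.37 for Ctrc and 0.50 for Cela1. Leaving out the arrays most extreme in Ctrb1 narrows its range, which can lower r in itself. These values therefore do not settle whether the relations of Ctrl and Cel rest on those arrays.

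**Figure D4:**
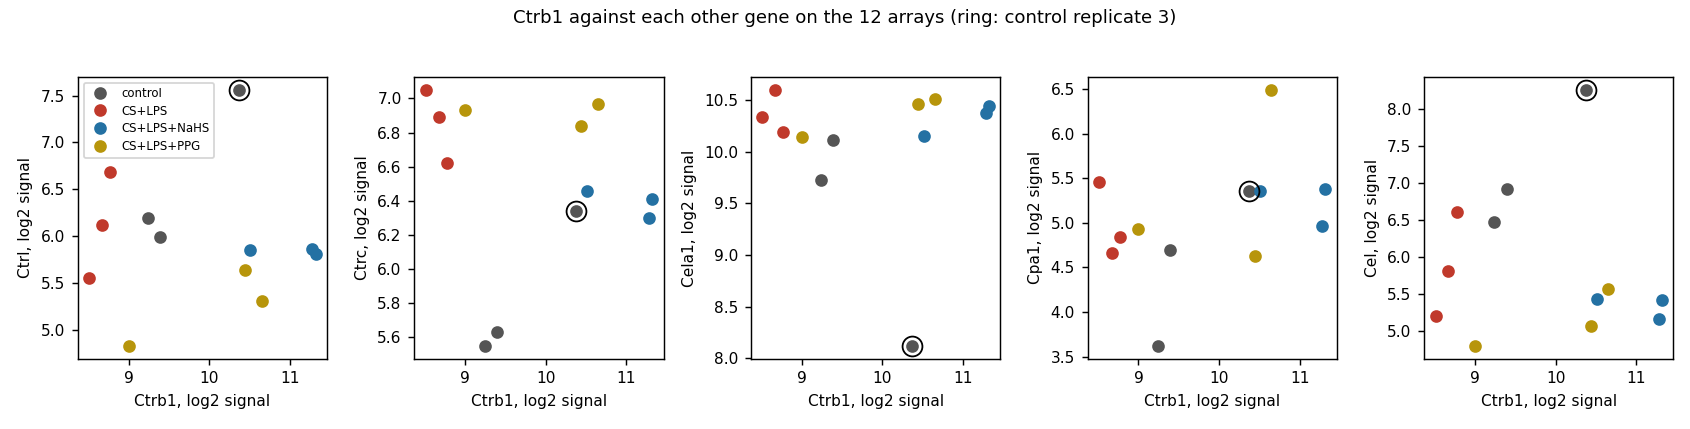
Log2 level of Ctrb1 (horizontal axis) against that of each other gene (vertical axis) on the 12 arrays, coloured by group, with a ring round control replicate 3. The ringed array is the highest in Ctrl and Cel, at 7.56 and 8.26, and the lowest in Cela1, at 8.12.

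As a measure of likeness only, r was also taken over the 12 arrays with the groups left in. Among the 21239 detected probes, those with a symbol most like Ctrb1 over the 12 arrays were Apoa5 (r = 0.94), Slc39a12 (0.91), Pth2 (0.91), Vax2 (0.85) and Aak1 (0.85). None is a pancreatic enzyme gene. The probes most like the others were Msantd1, Olr59 and C1qtnf12 for Ctrl (r = 0.94), Orc3, Cyp2d5 and Mrpl12 for Ctrc (0.93), and Dmrtc2, Wtap and Klhdc2 for Cela1 (0.98). For Cpa1 they were Hsd17b7, Dnmt3l and Acat2 (0.81), and for Cel they were C15h8orf58 (0.98) and the 2 probes of Ptpn13 (0.97 and 0.96). Slc39a12, Msantd1 and Olr59 were well above background on 8, 6 and 7 of the 12 arrays. Control replicate 3 was the highest array in Ctrl and Cel and the lowest in Cela1. Their r was not computed without it, so it may rest on that array. These values are a description, since probes on the same arrays are not independent.

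Of 32 other genes of pancreatic acinar cells, 27 had a probe and 10 were detected. The probes of Prss1 (trypsin), Cela2a, the lipase genes Pnlip, Pnliprp1 and Pnliprp2, Clps (colipase), Cuzd1, Reg1a and Ptf1a were well above background on no array. Those of 8 genes were so on all 12 arrays, among them Pla2g1b, a phospholipase also made in lung, Rbpjl and Bhlha15. Ptf1a read 1.89 to 3.28 and Rbpjl, its partner in the acinar complex, 7.73 to 8.78. The summed linear signal of the list was 13400 to 22800 over the control arrays, of which Pla2g1b alone made up 10500 to 20900. It was 25900 to 34600 over the CS + LPS arrays, 21200 to 27100 over the NaHS arrays and 23700 to 26400 over the PPG arrays. The CS + LPS and PPG sums thus lay above all control arrays. Pla2g1b alone made up 23800 to 31600, 18300 to 24700 and 21200 to 23900 of these. Without Pla2g1b the sum was 1420 to 2910 over the control arrays. It was 2050 to 3720 over the CS + LPS arrays, 2390 to 2830 over the NaHS arrays and 2180 to 2570 over the PPG arrays, so that every exposed group overlapped with control. A bulk measurement cannot tell fewer cells of a type from less RNA in each cell.

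**Figure D5:**
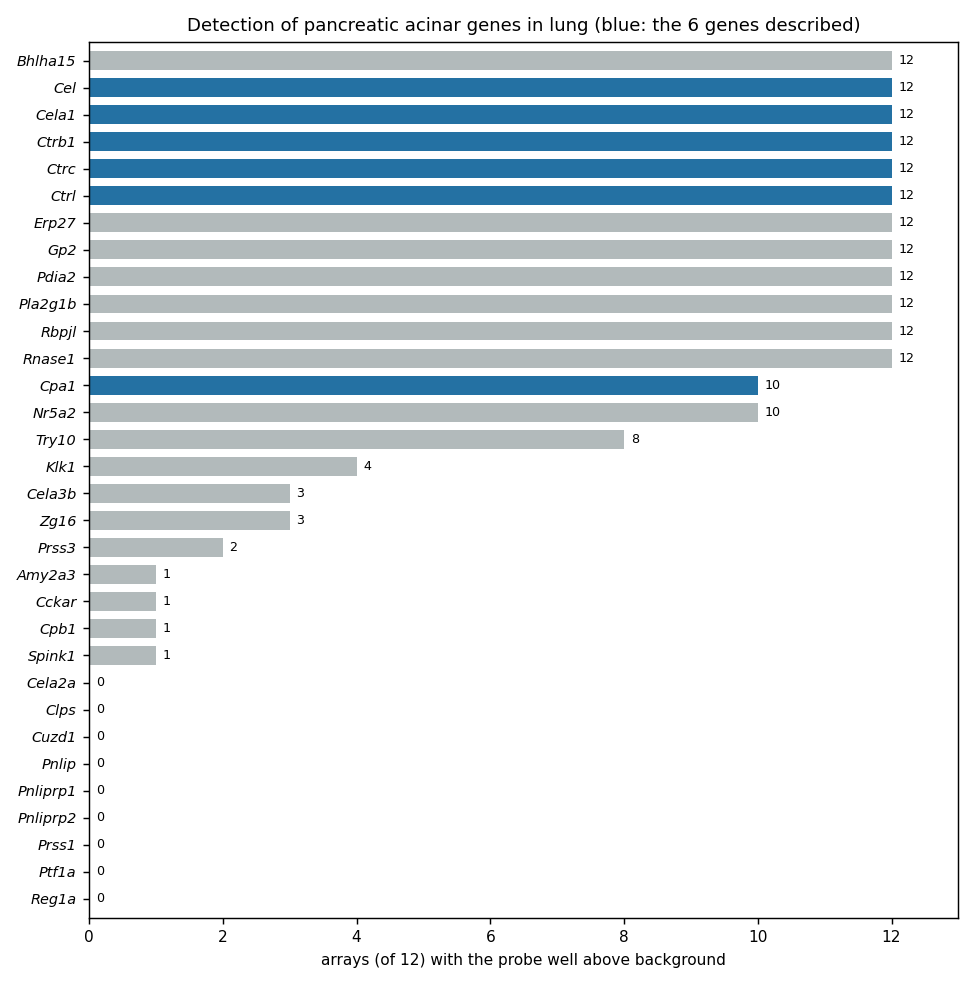
Number of arrays, of 12, on which the probe was well above background (horizontal axis) for pancreatic acinar genes (vertical axis), with the 6 genes described in blue and others in grey. Prss1, Pnlip, Clps and Ptf1a stand at 0, while Ctrb1, Ctrl, Ctrc, Cela1 and Cel stand at 12.

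In CS + LPS against control 3 of the 10 detected genes of this list were DE, where 4.59% of all detected probes were. They were Try10 (a trypsin), Gp2 (a granule membrane protein) and Nr5a2 (a nuclear receptor), higher by 1.26, 1.89 and 1.62 (SE 0.44, 0.68 and 0.46). Try10 was well above background on 8 arrays and Nr5a2 on 10. Nr5a2 was not so on control replicates 2 and 3, so it passed only through exposed groups and its control level is not measured on all its arrays. The median difference of the list in CS + LPS against control was 0.64, beside -0.04 over all detected probes. No gene of the list had an adjusted p under 0.05 there in limma, 5 had an unadjusted p under 0.05, and in the unpaired test of the methods 0 did, so that test kept none of these calls. The share of all probes at an unadjusted p under 0.05 is not given here, so nothing is read from the 5. The summed signal of 4 lymphocyte markers, well above background on all 12 arrays, was 1430 to 2440 over the control arrays and 2470 to 4820 over the CS + LPS arrays. It was 3640 to 3780 over the NaHS arrays and 2970 to 4260 over the PPG arrays. The markers were not alike. In CS + LPS against control the B cell genes Cd79b, Ms4a1 and Cd79a were higher by 1.24, 1.07 and 0.87. The T cell gene Cd3e was higher by 0.22 (SE 0.29). The part of these cells in the levels was not tested. With NaHS, Gp2 and Nr5a2 were DE and higher than control by 2.14 and 1.75, and Pdia2, a protein disulfide isomerase of the pancreas, was DE at -1.28. With PPG, Nr5a2 was DE and higher by 1.59, and Pdia2 was DE at -1.55. Of all detected probes 2.67% were DE with NaHS and 4.38% with PPG, each against control. Compared with CS + LPS, Try10 with NaHS was DE at -1.23, where 1.71% of probes were DE, while Ctrb1 was higher there. The medians of the list against control were 0.01 with NaHS and 0.21 with PPG.

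Single arrays carried several of these calls. Without control replicate 3, Pdia2 was at -0.55 with NaHS and -0.82 with PPG, Nr5a2 with PPG at 0.98 and Try10 in CS + LPS at 1.14, and none of these was DE. Gp2 in CS + LPS was at 1.22 without control replicate 1, 1.67 without CS + LPS replicate 1 and 1.62 without CS + LPS replicate 3, and was not DE. Pdia2 with NaHS lost its call without any 1 of the NaHS arrays, at -1.33 to -1.23. Try10 lost its calls without CS + LPS replicate 3, at 0.76 against control and -0.74 for NaHS against CS + LPS, and without NaHS replicate 2 the latter was -0.88. With normexp background correction Try10 and Nr5a2 in CS + LPS were at 0.08 and 0.18, and with slide as a block Gp2 was at 0.26, none of them DE.

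Activators and inhibitors of these proteases made up a list of 9 genes with a probe, of which 7 were detected. Tmprss15, the enteropeptidase that activates trypsinogen in the gut, was well above background on no array. The lysosomal proteases Ctsb and Ctsl had mean levels of 16.56 and 14.98 over the 12 arrays. Among the inhibitors, Serpinb1a, which acts on neutrophil and pancreatic proteases, had 13.67, Slpi 11.47 and Serpina1 10.17, each on the scale of its own probe. Serpinb1a was the 1 DE gene, higher with PPG than in control by 1.04 (SE 0.27, adjusted p = 0.0516, limma), where 4.38% of all detected probes were DE. Serpinb1a was at 0.71 without control replicate 3, at 0.95 without PPG replicate 2 and at 0.95 with quantile normalization, and not DE. In the other comparisons limma called none of the 7 genes DE, with 2, 1, 0, 0 and 0 at an unadjusted p under 0.05 in CS + LPS and NaHS against control, NaHS and PPG against CS + LPS, and NaHS against PPG. The unpaired test of the methods gave 1, 0, 0, 0 and 0. The share of all probes at an unadjusted p under 0.05 is not given here, so nothing is read from these counts.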

How the data were processed

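The authors scanned the arrays and deposited, for each, the output of Agilent Feature Extraction 10.7, whose processed signal is a linear intensity from which that software had taken the background. The authors also deposited lists of DE probes with log2 values for each array, used here for symbols, that of Cel among them, and with fold changes and p-values, which were not used. The listed log2 values of Cel, Ctrb1 and Ctrc lay within 0.003 of those computed here with quantile normalization. In the lists, 60 columns of single arrays were left unused. Groups came from the labels and slides from the array headers.

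Spots flagged as outliers were left out, processed signals were put on the log2 scale, spots of a probe were averaged, and arrays were shifted to a common 75th percentile. The percentile was first taken over spots. It was changed to probes after the counts under both had been seen and set beside counts from an earlier analysis of these data, so the version over spots is given as an alternative chosen after seeing the data. Detected probes (at least 1 group with the probe well above background on its 3 arrays) were tested with limma 3.58.1 in R 4.3.3 over all 12 arrays, without a block, and p-values were adjusted by Benjamini-Hochberg over 21239 probes. A DE gene passed a fold change of 2 with a two-sided p, not adjusted, under 0.05. With 3 arrays against 3 an exact permutation test cannot go below 0.1. Symbols came from the RefSeq accession in a GRCr8 gene table (17514 probes) or from the lists (200 probes), and 12653 probes had none. The number of arrays limits the precision.

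The genes named are the 6 members, the genes of 2 lists that were DE in any comparison or among the 5 of their list with the highest probe signal, and the probes most like each member. Genes named because they were well above background on no array, and marker genes, were added after their values were seen. The values of 1 gene of these lists are not reported here. The members and lists were chosen with earlier results of these data known. Alternatives were quantile normalization, 2 other percentiles, normexp background correction on the median signal, flagged spots kept, 3 other filters, slide or replicate number as a block, only the groups compared, the unpaired test of the methods, and leaving out each array. The fits were tested on simulated data. Figures used matplotlib 3.10.9 and pandas 2.3.3 in Python 3.11.15.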

Additional observations from a re-analysis of the deposited data

Results flagged for a closer look

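Ctrb1 was 2.39 higher on the log2 scale in CS + LPS + NaHS than in CS + LPS. All 3 NaHS arrays lay above every control array and all 3 CS + LPS arrays lay below every control array. Over all detected probes, 24.8% did not overlap with control with NaHS and 25.2% in CS + LPS, so nothing is read from this. The difference between NaHS and CS + LPS was not tested, and Ctrb1 was chosen for it. The CS + LPS arrays lay on slide 2 and the NaHS arrays on slide 1, so treatment and slide cannot be told apart in this difference.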

How the results depend on the processing

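Of 858 log2 differences under the alternatives, 783 kept their direction and their side of the threshold or moved by less than the spread between replicates. The count of the 6 genes DE in CS + LPS against control was 0 with normexp background correction, 2 with the unpaired test of the methods and 1 to 4 when each array was left out. In PPG against control it was 1 with normexp and 2 with the unpaired test. In NaHS against CS + LPS it was 3 with slide as a block, where the Ctrb1 difference was 3.44. In PPG against CS + LPS it was 2 with quantile normalization, 2 with slide as a block, 0 with the unpaired test and 1 to 3 with arrays left out. In NaHS against PPG it was 0 with normexp, with the 2 groups alone and with the unpaired test, and 0 to 1 with arrays left out. These counts take in Ctrb1 and Cel, which were picked on these data, so they are values only. The cause of the changes was not tested.

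Replicate numbers do not pair the rats: of 18 pairs of arrays with the same number, 2 had correlated deviations above 0.1, in a range of -0.31 to 0.14. With replicate number as a block, the count in NaHS against PPG was 0 where it was 1 without the block, and the other counts stayed within 1.5 times.

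Some differences changed sign. With normexp, Cpa1 was at -0.27 in CS + LPS and -0.12 with NaHS against control, and Cel at -0.04 in NaHS against PPG. With slide as a block, Cpa1 in CS + LPS against control was -0.38, and Ctrl and Cel in PPG against CS + LPS were 0.62 and 0.84. With slide as a block in NaHS against CS + LPS, Ctrl was 1.20 (SE 0.49) where it was -0.28, Cel 1.03 (SE 0.58) where it was -0.54, and Ctrc 0.29 (SE 0.22) where it was -0.46. These values rest on control replicate 3. In PPG against CS + LPS, Ctrc was -0.05 with quantile normalization, and Cela1 was 0.01 with the percentile taken over the probes that every array measured well above background and 0.02 with the percentile over spots, which was added after the data were seen. With each array left out, the ranges in CS + LPS against control were -0.76 to 0.03 for Ctrl and -0.05 to 0.82 for Cpa1. In PPG against CS + LPS they were -0.06 to 0.16 for Ctrc, -0.10 to 0.11 for Cela1 and -0.20 to 0.72 for Cpa1. In NaHS against PPG they were -0.16 to 0.04 for Cela1 and -0.48 to 0.45 for Cpa1.

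The correlations with Ctrb1 in the sets of 6 arrays are values only. Ctrl in the lower set was -0.09 and Cpa1 in the higher set 0.07 with quantile normalization, and Ctrc in the lower set was -0.69 with normexp. Within groups, Ctrl was 0.60 with normexp. On slide 1 alone Ctrl was 0.71, Ctrc -0.26, Cela1 0.82 and Cel 0.57. Without the 2 farthest arrays they were 0.15, -0.37, 0.50 and 0.25. With single arrays left out they ran from 0.52 to 0.74 for Ctrl, -0.23 to 0.56 for Ctrc, -0.65 to 0.66 for Cela1 and 0.42 to 0.70 for Cel.

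The mean of several probes was not run, since each gene had 1 probe, and leaving out arrays inside a set of 6 left too few for a correlation. The normexp alternative changed both the background correction and the signal used, the median in place of the processed one, and which of these moved the values was not tested.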
